A study of Mus musculus with 40 samples.

Results

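The genes described here are 8 genes that mark mast cells, Cpa3, Cma1, Tpsb2, Mcpt4, Kit, Ms4a2, Hdc and Fcer1a. They were taken by name, and their probes are those that carry these symbols in the deposited annotation table. They are 8 of 29411 genes and 12 of 40628 probes on a 1-colour Agilent array. The arrays were made from subcutaneous stromal vascular cells (SVCs), the cells left when fat tissue is digested, which the series title calls infiltrating macrophages. The mice were C57BL/6J, divided into 5 diet groups of 30 animals after weaning at 3 to 4 weeks of age. LFC mice were fed a diet with 10% of calories from fat. HFC mice were fed a diet with more sucrose and 60% of calories from fat. HF5, HF20 and HF75 mice were fed the HFC diet with 5, 20 or 75 µg of Kal-1, an aqueous plant formulation whose composition the labels do not give. From each group 5 animals were sacrificed every 3 weeks, and the labels do not say whether their RNA was pooled on an array.

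Mast cells are resident immune cells of connective tissue that store proteases, histamine and heparin in granules and release them when antigen binds the IgE on their surface. Subcutaneous fat and skin hold mast cells of the connective tissue type, which contain chymases, tryptases and carboxypeptidase A3. They depend on the receptor Kit for survival, but Kit is also made by melanocytes and blood progenitors, and Hdc is also made by other myeloid cells, so neither gene marks mast cells alone.

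Of 40 arrays, 38 had labels that were free of conflict. LFC and HFC had 11 arrays each, labelled days 1, 6, 10 and 14, then weeks 0, 3, 6, 9, 12, 15 and 18. HF5 had 6 arrays, at weeks 3 to 18, and HF20 and HF75 had 5 each, at weeks 3 to 15. There was 1 array for each diet and time label, so time points served as the replication, and p-values measure the spread between these arrays, which may be technical. Per the methods, week 0 is the same time as day 14, so weeks 3 to 18 correspond to days 35 to 140.

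The levels below are log2 intensities after each array was scaled to its own 75th percentile, and a level describes 1 probe across arrays, not an amount that can be set against another gene. Cma1, Mcpt4, Kit and Hdc were well above background on 37 of the 38 arrays, Cpa3 on 36, Tpsb2 and Fcer1a on 33, and Ms4a2 on 8. An array on which a probe was not well above background gave no level that can be relied on, and such a value is called a bound. The LFC array labelled day 14 had 9104 outlier spots and a median rank correlation of 0.462 with the other arrays. The LFC array of week 3 had 17.2% of its probes well above background, a correlation of 0.499, and only bounds for the 8 genes. Summaries of LFC levels below leave out both arrays and cover the other 9, while the tests keep both unless stated. The correlations of the other 36 arrays lay between 0.833 and 0.943. The LFC array of week 18 had the lowest of these. Its neutrophil list (S100a8, S100a9, Ngp, Camp, Ly6g and Mpo) had a mean level of 5.80, and its adipocyte list (Adipoq, Lep, Plin1, Cidec, Lipe and Retn) a mean level of -5.58, the highest and the lowest values of these lists on any array.

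Cma1 encodes chymase 1, a protease that cuts after aromatic or, in rodents, small residues and is stored in connective tissue mast cells. Its log2 level was -2.72 at the lowest, 0.46 at the median and 2.69 at the highest on the 9 LFC arrays. On the 11 HFC arrays it was -0.11 at the lowest, 1.44 at the median and 2.81 at the highest. LFC was high at day 6 and week 0 and low at weeks 6 and 18, whereas HFC was high at day 10 and at weeks 6, 9 and 15. On the 6 HF5 arrays the Cma1 level ranged from 0.11 through a median of 0.86 to 2.42. On the HF20 arrays it was 0.10, -0.01, 0.53, 1.85 and 1.53 at weeks 3, 6, 9, 12 and 15. On the HF75 arrays it was 0.49, -1.78, 1.32, 1.45 and 0.33 at the same weeks. All 5 groups overlapped.

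Mcpt4 encodes mast cell protease 4, the mouse chymase closest in activity to that of humans. Its level was -3.34 at the lowest, 0.23 at the median and 1.70 at the highest in LFC, and -0.72, 0.73 and 2.14 in HFC. The LFC minimum was again at week 18, followed by week 6 with -2.28, and the HFC maximum was at week 9, whereas that of Cma1 was at day 10. In HF5 the Mcpt4 level ranged from -0.98 to 1.97, in HF20 from -0.82 to 1.27 and in HF75 from -1.66 to 1.06.

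Tpsb2 encodes a tryptase, which forms tetramers on heparin in the granule. On the 9 LFC arrays its level was -5.81 at the lowest, -2.22 at the median and -1.27 at the highest, with bounds only at weeks 6 and 18. On the HFC arrays it was -3.25 at the lowest, -2.47 at the median and -1.24 at the highest. HF5 ranged from -3.90 to -0.78, HF20 from -4.11 to -1.78, and HF75 from a bound of -5.89 at week 6 to -2.15 at week 12.

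Cpa3 encodes carboxypeptidase A3, which trims the C-terminal residues of peptides. Its level was -3.73 at the lowest, -0.99 at the median and 1.01 at the highest in LFC. In HFC it was -2.36, -0.21 and 0.74. In HF5 the median was -1.93, between -2.98 and 0.28. On the HF20 arrays the Cpa3 level was -2.75, -1.45, -1.67, -0.48 and -1.03 at weeks 3, 6, 9, 12 and 15. On the HF75 arrays it was -2.60, -4.82, -1.12, -1.10 and -2.49 at these weeks. The medians ran in the order HFC, LFC, HF20, HF5 and HF75, but those of HFC and LFC include the labels up to week 0. The Kal-1 groups lack these labels, so the order does not compare the diets at the same times. No neighbours in this order were separated beyond their ranges.

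Fcer1a and Ms4a2 encode the alpha and beta chains of the high affinity IgE receptor. The Fcer1a level was -4.74 at the lowest, -4.05 at the median and -2.24 at the highest in HFC, with a bound at day 6. LFC had a median of -3.92, with bounds at day 6 and week 6, and HF5 one of -3.60. On the HF20 arrays Fcer1a was -5.51, -3.83, -3.88, -2.87 and -3.67, and on the HF75 arrays -4.66, -5.39, -2.50, -3.18 and -4.33, at weeks 3 to 15. The diets overlapped, and over the 36 arrays Fcer1a lay between -5.51 and -1.99. The Ms4a2 probe was well above background on 4 LFC, 2 HFC and 2 HF20 arrays and on 0 of the 6 HF5 and 5 HF75 arrays. It was therefore not tested in any comparison, and the beta chain could not be followed on these arrays.

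Kit encodes the receptor for stem cell factor. Its level was -0.40 at the lowest, 0.50 at the median and 1.16 at the highest in LFC, and -0.69, -0.34 and 1.74 in HFC. In HF5 it ranged from -0.88 to 0.36. On the HF20 arrays the Kit level was 0.09, 0.24, 0.19, -0.04 and -0.93, and on the HF75 arrays 0.10, 0.89, -1.71, -0.83 and -0.45, at weeks 3 to 15. Week 15 was the low array of HF20 and week 9 that of HF75, and the diets overlapped. The SD of the Kit level over the 36 arrays was 0.68, below the median SD of 0.82 over 28200 probes, whereas those of Cma1 (1.27), Mcpt4 (1.18), Tpsb2 (1.26) and Cpa3 (1.29) were above it.

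Hdc encodes histidine decarboxylase, which makes histamine. It had the largest spread of the 8 genes over the 36 arrays, with an SD of 1.78, larger than that of 93.0% of probes. Its level was -2.26 at the lowest, 2.29 at the median and 4.80 at the highest in LFC, with the minimum at week 12 and the maximum at week 18. In HFC it was -1.16, 1.70 and 2.79, and in HF5 -0.01, 2.57 and 5.12, with the maximum at week 3. On the HF20 arrays the Hdc level was 1.41 and 2.34 at weeks 3 and 6 and -1.20, -2.03 and -1.04 at weeks 9, 12 and 15. On the HF75 arrays it was 1.03, 2.60, 0.54, 1.45 and 3.10. Week 9 was low in all 5 diets and the later HF20 arrays were low as well.

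**Figure D1:**
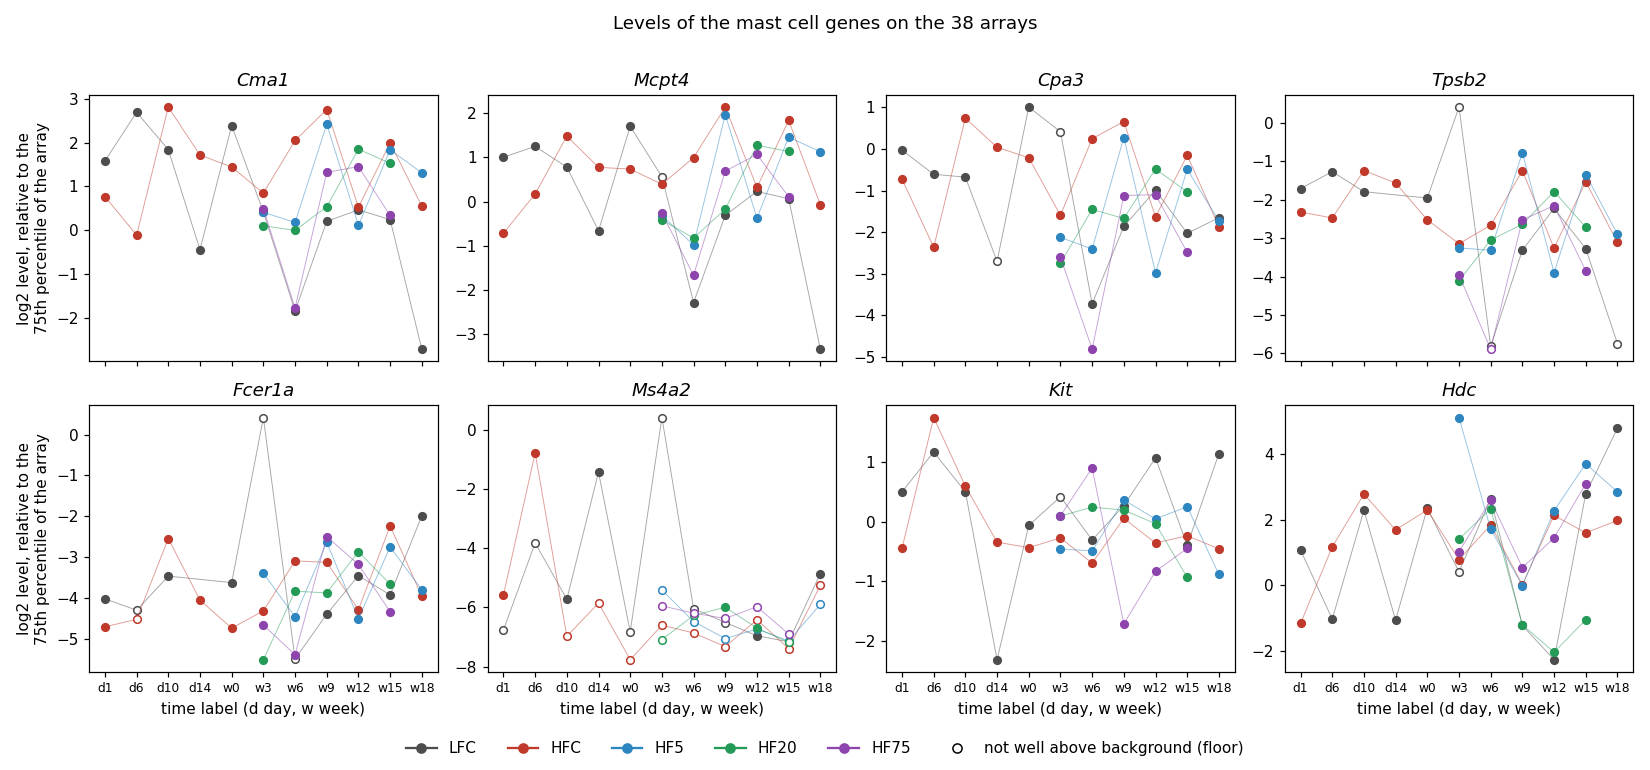
Log2 level of each gene on the 38 arrays (y axis, 0 being the 75th percentile) by time label (x axis, d for day and w for week), coloured by diet, with 1 point for each array, lines joining arrays of a diet, and open points where the probe was not well above background. Cma1, Mcpt4, Cpa3 and Tpsb2 are high together on the HFC array of week 9 (Cma1 level 2.75) and low together on the HF75 array of week 6 (-1.78), but on the LFC array of week 18 Cma1 (-2.72) and Mcpt4 (-3.34) are at their lowest while Cpa3 is at -1.65.

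The question of the HFC and LFC arrays was how these genes stood under the high-fat diet over time. Taken label by label, with 1 array on each side and no replicate error, 45 of 74 measured differences were at least 2-fold, against 38.4% of 225700 over all genes and the same labels. At week 6 the HFC array was higher in all 4 proteases. The Cma1 level was 2.05 in HFC and -1.85 in LFC, 14.9-fold apart, and Cpa3 was 15.7-fold and Mcpt4 9.69-fold higher. Tpsb2 was at least 8.88-fold and Fcer1a at least 5.29-fold higher, since both were not well above background in LFC. These 5 of 7 measured genes compare with 11.3% of 21189 genes at least 2-fold higher and 23.4% different in either direction. In bulk samples, more or fewer mast cells and more or less RNA per mast cell cannot be told apart.

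At week 9, on a shared slide, 6 of 7 genes were at least 2-fold higher in HFC, against 6.89% of genes higher and 15% different in either direction. Cma1 was 5.86-fold, Cpa3 5.74-fold, Mcpt4 5.45-fold, Tpsb2 4.20-fold, Fcer1a 2.41-fold and Hdc 2.37-fold higher, and Kit differed by -0.21 on the log2 scale. At week 15, 5 of 7 were higher, against 7.1% of genes higher and 24.1% different, with the 4 proteases between 3.34-fold (Tpsb2) and 3.67-fold (Cpa3), and Hdc was 2.28-fold lower. At week 18, Cma1 was 9.63-fold and Mcpt4 9.61-fold higher in HFC and Tpsb2 at least 6.22-fold, whereas Cpa3 was 1.16-fold lower. There 47.4% of genes differed this much, and the LFC array is the one with the extreme neutrophil list. Hdc, Kit and Fcer1a were lower in HFC there.

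Up to week 0 the labels were mixed. At day 1, 2 of 8 genes were at least 2-fold lower (Hdc and Mcpt4) and Ms4a2 was higher, while 54.9% of all genes differed this much. At day 6, on a shared slide, 4 of 7 were lower, with Cma1 6.99-fold, Cpa3 3.37-fold, Tpsb2 2.31-fold and Mcpt4 2.11-fold lower in HFC, beside 12.7% of genes lower and 51.8% that differed in either direction. Hdc was 4.61-fold and Ms4a2 at least 8.26-fold higher there. At day 10 all 4 proteases were higher in HFC, Cpa3 by 1.42, Cma1 by 0.97, Mcpt4 by 0.70 and Tpsb2 by 0.55 on the log2 scale, and only Cpa3 of these passed 2-fold, while Ms4a2 was at least 2.38-fold lower, beside 23% of genes that differed. The day 14 label, with the LFC array of 9104 outlier spots, had 5 of 6 genes higher and Ms4a2 at least 21.5-fold lower, beside 81.7%. At week 0, the same time on a shared slide, only Cpa3 and Fcer1a passed 2-fold, both lower in HFC, beside 5.79%. The day 14 and week 0 pairs, which are the same time, gave opposite signs for all 5 genes other than Ms4a2 measured in both. Cma1 differed by 2.16 and -0.95, Mcpt4 by 1.43 and -0.97, Kit by 1.96 and -0.37, and Hdc by 2.75 and -0.06, and Cpa3 by at least 2.74 and by -1.22. At week 3, 0 of 2 measured genes passed, beside 56.1% of genes, and at week 12, 1 of 7 was higher (Hdc, 21.1-fold) and 2 were lower, beside 47.1%.

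**Figure D2:**
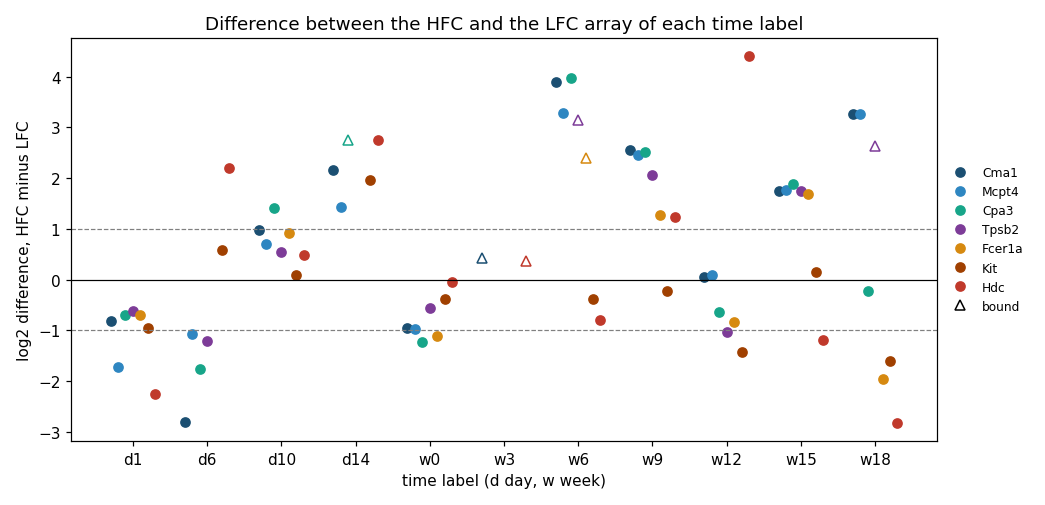
Log2 difference of the HFC from the LFC array (y axis) at each time label (x axis), with 1 point for each measured gene other than Ms4a2, triangles for bounds, and dashed lines at 2-fold. Cma1, Mcpt4, Cpa3 and Tpsb2 lie together above 1 at weeks 6, 9 and 15 and below 0 at days 1 and 6 and week 0. They lie above 0 at day 10, as do the 3 measured at day 14, and at week 12 Cpa3 (-0.64) and Tpsb2 (-1.03) lie below 0. At week 18 Cma1 (3.27), Mcpt4 (3.26) and Tpsb2 (at least 2.64) lie apart from Cpa3 (-0.21).

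Over the 11 pairs, limma with the time label as a block called 0 of 29215 probes (0%) between HFC and LFC at an adjusted p under 0.05, and 0 of the 7 genes tested. At an unadjusted p under 0.05 there were 741 probes and 0 of the 7. Cma1 was higher in 8 of 11 pairs, with a difference of 0.96 (95% CI -0.23 to 2.15, adjusted p = 0.932), and Mcpt4 in 7 of 11, with 0.82 (CI -0.24 to 1.88). Cpa3 differed by 0.55 and was higher in 5 of 11 pairs, Tpsb2 by 0.32 in 5 of 10, Hdc by 0.40 in 6 of 11, Fcer1a by -0.33 in 4 of 10 and Kit by -0.26 in 4 of 11. The median of the 7 was 0.40 and that of all probes tested was -0.11. Of the other lists, with 0 genes called, the fibroblast list was higher in 6 of 6 genes (median 1.27), the endothelial list in 5 of 5 (0.91), the immediate-early list in 6 of 6 (1.57) and the skin list in 0 of 4 (-1.75), and their part was not tested. The nearly blank LFC array of week 3 weighed on these values, and without that label Tpsb2 differed by 0.75 and Fcer1a by 0.16. Within the 4 time labels whose arrays shared a slide, the differences were -0.19 for Cma1, 0.06 for Mcpt4, -0.62 for Cpa3 and -0.82 for Tpsb2. Without week 3, an alternative chosen after seeing the data, the 3 others gave -0.40 for Cma1, 0.13 for Mcpt4, -0.15 for Cpa3 and 0.10 for Tpsb2, so the sign of Tpsb2 within slides depended on that array.

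Whether the diet difference changed with time was tested as an interaction of diet with late (weeks 3 to 18) or early (up to day 14) labels. Limma called 0 of 29215 probes (0%), and 1128 at an unadjusted p under 0.05. With normexp background correction the late against early difference of HFC from LFC called 5197 probes, Tpsb2 and Fcer1a among them, and Fcer1a turned from -0.08 to 2.19, while the median of all probes went from -0.54 to 0.71. The late minus early difference was 2.28 for Cma1 (CI 0.19 to 4.37, unadjusted p = 0.0351, adjusted p = 0.817) and 2.11 for Mcpt4 (CI 0.27 to 3.94, unadjusted p = 0.0278, adjusted p = 0.817). It was 1.29 for Tpsb2 and 0.82 for Cpa3, whose intervals spanned 0, and -0.95 for Kit, -0.43 for Hdc and -0.08 for Fcer1a. The median of all probes was -0.54, so the proteases lay above it. Without the labels day 14 and week 3 the 4 differences were 3.20, 2.94, 2.17 and 2.07 for Cma1, Mcpt4, Tpsb2 and Cpa3, with an adjusted p of 0.606 for Cma1. Without week 18 they were 2.02 for Cma1 and 1.81 for Mcpt4. Over 21 alternatives the Cpa3 difference lay between -0.05 and 2.07 and changed sign in 1. The T cell list (Cd3e, Cd3g, Cd2, Lck and Cd5) had a median late minus early difference of 3.78 and the B cell list one of 3.60, with all 5 genes of each positive. The immediate-early (median 1.89), fibroblast (1.84) and macrophage (0.79) lists were positive in 6 of 6 genes each. The basophil and melanocyte lists had medians of -0.96 and -0.82. The part of these lists in the protease differences was not tested.

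Late against early arrays over both diets differed at 1 of 30259 probes (0.0033%), and 0 of the 7 genes, with 1151 probes at an unadjusted p under 0.05. The 4 proteases were between -1.02 (Tpsb2) and -0.61 (Mcpt4), with adjusted p = 0.9998 for each. Fcer1a differed by 0.66, Hdc by 0.25 and Kit by -0.07. Over 10 alternatives Cpa3 lay between -0.94 and -0.09 and Fcer1a between -0.58 and 1.21.

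The Kal-1 groups were compared with HFC to see whether the formulation altered the response to the diet. These 3 comparisons share the HFC arrays, including the HFC arrays of weeks 6, 9 and 15 with high protease levels, so their values are not independent of each other or of the comparison with LFC. For HF5, limma called 0 of 29200 probes (0%), with 1480 at an unadjusted p under 0.05, and 0 of the 7 genes. Cpa3 was lower in 5 of 6 pairs, with a difference of -0.85 (CI -1.68 to -0.03, unadjusted p = 0.0443, adjusted p = 0.961). Cma1 differed by -0.41, Mcpt4 by -0.45 and Tpsb2 by -0.09. At week 6 alone Cma1 differed by -1.87 and Mcpt4 by -1.97. Over 17 alternatives Cma1 lay between -0.64 and 0.11 and Mcpt4 between -0.79 and 0.04, and each changed sign in 2. Tpsb2 lay between -0.48 and 0.17 and changed sign in 3. Hdc differed by 1.22 (CI -0.12 to 2.56), with 5.12 against 0.79 at week 3. Without week 3 the Hdc difference was 0.59, and without week 6 that of Cpa3 was -0.49. In the 3 weeks whose HF5 and HFC arrays shared a slide, Cpa3 differed by -0.52, Cma1 by 0.06 and Hdc by 1.04. Of other lists, with 0 genes called, the macrophage list had a median of -0.44 in HF5, with 3 of 6 genes at an unadjusted p under 0.05, the erythroid list one of -0.90, with 2 of 3, and the skin list one of 2.75, with 0 of 5. Their part in the Cpa3 and Hdc differences was not tested.

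For HF20, limma called 0 of 30831 probes (0%), with 3539 at an unadjusted p under 0.05, and 0 of the 7 genes. Cpa3 (-0.98), Mcpt4 (-0.94), Cma1 (-0.83), Fcer1a (-0.54) and Tpsb2 (-0.49) were each lower in 4 of 5 pairs, and week 12 was the exception for each. The intervals of all 5 spanned 0, as for Cpa3 (CI -2.18 to 0.21, adjusted p = 0.413). With single weeks left out, Cpa3 ranged from -1.52 to -0.65, Cma1 from -1.37 to -0.49 and Tpsb2 from -0.98 to -0.27. Fcer1a ranged from -1.03 to -0.32 in these fits, and Mcpt4 from -1.41 to -0.45 over 14 alternatives. Hdc differed by -1.39 (CI -3.17 to 0.40, adjusted p = 0.421), and by -0.69 without week 12. It was lower at weeks 9, 12 and 15, by 1.22, 4.17 and 2.65 on the log2 scale. On these 3 HF20 arrays the adipocyte list had mean levels of 4.94, 5.37 and 4.87, against 4.58, 1.14 and -0.57 on the HFC arrays, and the immediate-early genes (Fos, Fosb, Jun, Egr1, Atf3 and Ier2) had -0.01, -1.55 and 1.93, against 2.71, 4.89 and 4.94. Over the 5 pairs the adipocyte list was higher in 6 of 6 genes, with a median of 2.35, and the immediate-early list lower in 6 of 6, with a median of -2.73. The neutrophil list was lower in 6 of 6 genes (median -0.90), the macrophage list in 6 of 6 (-0.51) and the T cell list in 4 of 5 (-1.68), each with 2 genes at an unadjusted p under 0.05 and 0 called. Their part in the Hdc and protease differences was not tested.

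For HF75 against HFC, limma called 300 of 28910 probes (1.04%), 240 higher and 60 lower, but 0 of the 7 genes, with 4242 probes at an unadjusted p under 0.05. In the sensitivity fits of HF75 against HFC, leaving out week 3 lowered the count of probes to 14, week 15 to 49, week 6 to 92 and week 12 to 104, and a fit without the time block called 1. Cpa3 differed by -1.93 (CI -3.63 to -0.23, unadjusted p = 0.0311, adjusted p = 0.274) and Mcpt4 by -1.15 (CI -2.27 to -0.03, unadjusted p = 0.0462, adjusted p = 0.329). Tpsb2 differed by -1.31 (CI -2.69 to 0.08) and Cma1 by -1.27 (CI -2.74 to 0.20). Each of the 4 was lower in 4 of 5 pairs, and week 12 was again the exception. At week 6 the HF75 array had a Cpa3 level of -4.82 against 0.25 in HFC, a difference of 33.5-fold. Without week 6 the Cpa3 difference was -1.15, the Cma1 difference -0.63 and the Tpsb2 difference -0.83. The Tpsb2 level on the HF75 array of week 6 was a bound. The HF75 arrays of weeks 3, 6 and 9 were scanned on another day than the HFC arrays. At weeks 12 and 15, scanned on the same day, Cpa3 differed by 0.53 and -2.33 and Cma1 by 0.93 and -1.66. Hdc differed by 0.47 and was higher in 4 of 5 pairs. Fcer1a differed by -0.60 and Kit by -0.10, each higher in 2 of 5. The 7 genes had a median of -1.15, against 0.00 for all probes tested.

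Of 99 genes tested in the 19 lists, 0 were called in HF75. The macrophage list (Emr1, Cd68, Csf1r, Itgam, Lyz2 and Mrc1) was lower in 5 of 6 genes, with a median of -1.13 and 4 genes at an unadjusted p under 0.05. Its mean level over the 6 genes was 2.10 in HFC and -0.22 in HF75 at week 6, and 0.47 and -0.05 at week 12, where the proteases ran the other way. The erythroid list was lower in 3 of 3 genes, with a median of -1.45 and 0 at an unadjusted p under 0.05. The fibroblast list had a median of -0.50, with 3 genes lower (Col1a1, Pdgfra and Lum) and 1 higher (Dcn, 0.85) at an unadjusted p under 0.05. Other lists were higher, the neutrophil list in 5 of 6 genes (median 0.93) and the B cell (0.39) and skeletal muscle (0.67) lists in 5 of 5. In these 3 lists 0 genes had an unadjusted p under 0.05. Of 35 further mast cell genes tested 10 were higher, against 14451 of 28910 over all probes tested. The list of further proteases and granule genes had a median of -0.36, with Slc18a2 at -0.09 and Srgn at 0.25, and 3 of 4 transcription factors were higher. Those named here, chosen after their values were seen as the lowest, were the chemokine gene Ccl2 (-1.50), Tpsab1 (-1.44), a tryptase gene beside Tpsb2 that RefSeq lists as a transcribed pseudogene, the transmembrane tryptase Tpsg1 (-1.35, unadjusted p = 0.00901, adjusted p = 0.182) and Ltc4s (-1.05). The part of other cells in these differences was not tested.

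The levels of the 4 proteases were correlated. With levels centred by time label over the 36 arrays, Cma1 and Mcpt4 had r = 0.951 and rho = 0.952, and r = 0.930 without the 2 arrays farthest from the median. The HFC array of day 14 was alone at its label among the 36 arrays, so after this centring it carried no information. Cma1 and Tpsb2 had r = 0.902 and rho = 0.898, and Cpa3 and Tpsb2 r = 0.836 and rho = 0.851. Cpa3 with Cma1 gave r = 0.791 and Cpa3 with Mcpt4 r = 0.713, with rho of 0.816 and 0.812. Each had a permutation p of 1e-05, the smallest that 100000 shuffles within time labels can give, and an adjusted p of 3e-05 over 21 pairs. Some arrays of day 1 and weeks 3, 6 and 9 were scanned on another day than the rest of their label. Centred by scan day instead, an alternative chosen after seeing the data, over the 31 arrays that shared a day with another, r was 0.965 for Cma1 and Mcpt4, 0.801 for Cpa3 and Tpsb2, and 0.777 for Cpa3 and Cma1. Without LFC, the r of Cma1 and Mcpt4 was 0.943 and that of Cpa3 and Cma1 0.878.

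Fcer1a followed Cpa3 (r = 0.774, rho = 0.792, adjusted permutation p = 3e-05) and Tpsb2 (r = 0.569, rho = 0.595, adjusted permutation p = 0.0181). With Cma1 and Mcpt4 its r was 0.433 and 0.380, with adjusted p of 0.0928 and 0.169. By rank these pairs had rho = 0.507 and 0.535 (unadjusted permutation p = 0.0093 and 0.00682), and r was 0.58 and 0.57 without the 2 farthest arrays. Kit and Hdc followed none of the other genes. The r of Kit lay between -0.41 with Cma1 and 0.02 with Hdc, and that of Hdc between -0.27 with Cma1 and 0.13 with Fcer1a, all with an adjusted permutation p of at least 0.169. By r the 4 proteases thus all passed with each other, Fcer1a passed with 2 of them, a split that ranks did not show as clearly, Kit and Hdc passed with none, and Ms4a2 could not be placed.

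**Figure D3:**
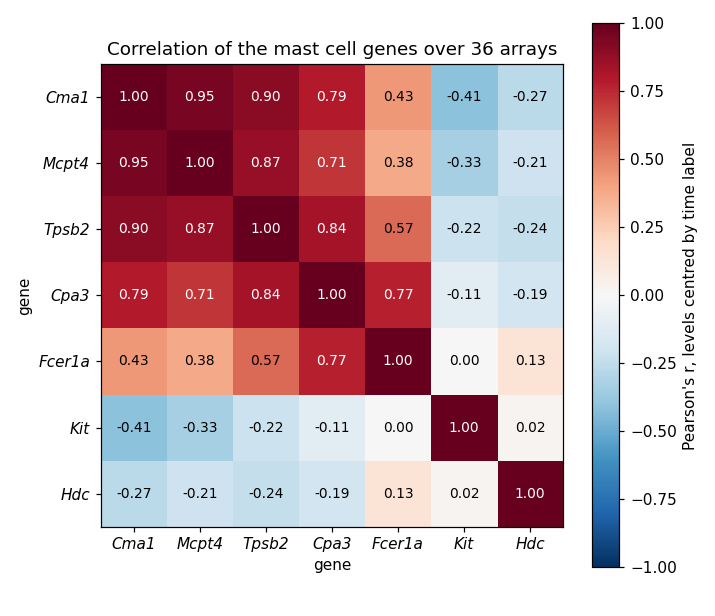
Pearson's r between each pair of the 7 genes that were well above background on most arrays (both axes list the genes), over 36 arrays with levels centred by time label. The values among Cma1, Mcpt4, Tpsb2 and Cpa3 lie between 0.71 and 0.95, and those of Kit and Hdc with the other genes between -0.41 and 0.13.

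The longest run of bases common to probes of 2 of the genes was 8 of 60, and the probes were not compared with the transcripts of the other genes. A further probe of Cma1 followed the probe used with r = 0.965, that of Mcpt4 with 0.977, and those of Kit with 0.996 and 0.904. The Kit probes with 0.996 carry the same 60 bases and are not independent.

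Other genes were ranked by their correlation with the mean standardised level of the 7 genes. Over 20156 genes and 36 arrays, the leading ones outside the list were Tpsab1 (r = 0.780), Gm4015 (0.732) and Tpsg1 (0.727), ranks 6 to 8 after 5 of the 8 genes themselves. Gm4015 is described on the array as similar to a chymase and was not found in the RefSeq table used here. Its probe and those of Tpsab1 and Tpsg1 shared at most 8 bases in a row with any probe of the 8 genes. Then came Pgm3 (0.709), Cass4 (0.705), Irak3 (0.678), Tnfrsf11b (0.673), Emilin2 (0.671), Cd55 (0.661) and F13a1 (0.655). Hdc and Kit, although part of the mean, ranked 6562 and 9256. In the RefSeq gene table (GRCm38.p6), Cma1 and Mcpt4 belong to the same cluster of chymase, cathepsin G and granzyme genes, and Tpsab1, Tpsb2 and Tpsg1 are neighbours.

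Not every gene of those clusters followed. Mcpt1 and Mcpt2, chymases of mucosal mast cells, were well above background on 3 and 2 arrays and Mcpt9 on 2, whereas Ctsg was on 35 and had r = 0.09 with the mean of the 4 proteases. Mrgprb2 and Mrgprb1, receptors of connective tissue mast cells, were well above background on 17 and 14 arrays and the basophil protease Mcpt8 on 12, too few for a correlation. The basophil protease Prss34 was on 35, with r = -0.19. Of the transcription factors, Mitf had r = 0.48, Gata2 -0.08 and Tal1 -0.45, and Gata1, on 22 arrays, -0.37. These are descriptions over arrays that share diets and scan days.

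There were 5 lists with 41 further mast cell genes, for granule contents, receptors and signalling, lipid mediators, transcription factors, and growth and recruiting factors made by other cells. Limma called 0 of 36 tested genes in HFC against LFC, with 2 at an unadjusted p under 0.05, and 0 of 35 in each of the comparisons of HF5, HF20 and HF75, with 1, 10 and 4. Over all probes these counts were 741 of 29215, 1480 of 29200, 3539 of 30831 and 4242 of 28910. In HFC against LFC these were Kitl, the ligand of Kit, which differed by 1.14 (unadjusted p = 0.0457, adjusted p = 0.932), and the transcription factor Gata1, by -1.55 (unadjusted p = 0.0436, adjusted p = 0.932). In HF20, 4 of the 35 were higher, against 17266 of 30831 over all probes tested. The 10 at an unadjusted p under 0.05 were all lower, from Hpgds with -0.75 to Ccl2 with -3.21, at an adjusted p of 0.413 each. They include Il33, Il4 and Ccl2, of the list made by other cells. The neutrophil (median -0.90), macrophage (-0.51) and B cell (-1.34) lists were lower in HF20 as well, while the adipocyte (2.35) and skin (0.50) lists were higher. The part of other cells in these differences was not tested.

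Relations with the lists were computed for Cpa3, Fcer1a, Kit and Hdc with each of 19 lists, 76 relations in all, with levels centred by time label. Cpa3 followed the list of further proteases and granule genes (r = 0.709, rho = 0.711, adjusted permutation p = 0.00481), the lipid mediators (r = 0.650, rho = 0.649, adjusted permutation p = 0.00741) and the macrophage list (r = 0.622, rho = 0.548, adjusted permutation p = 0.0168). Without the 2 arrays farthest from the median these were 0.679, 0.519 and 0.534. Fcer1a followed the same 3 lists, with r = 0.696, 0.659 and 0.513, and ran against the endothelial list, with r = -0.544, rho = -0.450, an adjusted permutation p of 0.0443 and r = -0.401 without the 2 farthest arrays. Kit passed with 0 of 19 lists. Its lowest adjusted p was 0.0764, with the skeletal muscle list (r = -0.572, rho = -0.558), and its r with the melanocyte list was -0.139.

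Hdc passed with the adipocyte list alone, and in the opposite direction. The mean level of that list fell into separate ranges, from 3.96 to 5.46 on 10 arrays and up to 2.29 on the other 26. The r below was therefore taken within each range. Unlike the relations above, it used levels not centred by time label, and the shuffles ran over all arrays of a range. The Hdc level lay between -2.26 and 1.18, with a median of -1.10, on the 10 arrays, and between 0.54 and 5.12, with a median of 2.29, on the 26. Within the 10 arrays r was -0.254 (permutation p = 0.481). Within the 26 it was -0.576 (permutation p = 0.00392) with rho = -0.427, but -0.377 (permutation p = 0.0618) without the LFC array of week 18. By rank it was -0.360 (permutation p = 0.0774) without that array, so the relation within the 26 arrays was weaker without it but kept its sign. That array does not bear on the Hdc levels of the 10 arrays. The 10 arrays were the week 9 arrays other than that of HF75, LFC at week 12, HF20 at weeks 12 and 15, both arrays of day 6 and HFC at day 1. Of lists that did not pass, Hdc had r = 0.523 with mast cell receptors and signalling and -0.477 with the melanocyte list (adjusted permutation p = 0.0764 for each), r = 0.558 with the immediate-early list (rho = 0.536, adjusted permutation p = 0.0911) and r = 0.498 with the neutrophil list (rho = 0.385, adjusted permutation p = 0.0911).

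At week 9 the titles of 4 of the 5 arrays hold the letters WS, which the labels do not explain. Those arrays, of LFC, HFC, HF5 and HF20, were compared with the 8 arrays of the same diets at weeks 6 and 15. Limma called 2229 of 31346 probes (7.11%), 1470 higher and 759 lower. Of the 7 genes tested Hdc alone was called, lower by -2.55 (CI -3.99 to -1.11, adjusted p = 0.0471). Its level was -1.22, 0.02, -0.01 and -1.20 on the WS arrays of LFC, HFC, HF5 and HF20, against -1.04 to 3.71 on the 8 others, so the groups overlapped through the HF20 array of week 15. The adjusted p of Hdc was 0.28 with the scan day as a random block and between 0.0506 and 0.198 when each WS array in turn was left out. Over 10 alternatives the Hdc difference lay between -2.84 and -2.09. The proteases differed by 0.73 (Cpa3, Cma1 and Mcpt4) and 0.97 (Tpsb2), with adjusted p from 0.25 to 0.458.

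The list calls that follow are those of the fit of week 9 arrays with WS titles against weeks 6 and 15, which called 0 probes with scan day as a random block and between 0 and 3557 when a WS array was left out, so they did not hold in each. In it all 6 adipocyte genes were called higher on the WS arrays, with a median of 4.85, led by Lep with 6.37 and Retn with 6.30. All 6 immediate-early genes were called lower, with a median of -4.37, led by Fos with -6.10, and these calls too were lost with the scan day block. The neutrophil list had a median of -1.48 with 0 of 6 called. The skin list was lower in 5 of 5 genes, with a median of -4.27 and 1 called. Dct of the melanocyte list was called higher by 4.50, and 1 of 6 fibroblast genes was called lower. These calls were lost with the scan day block as well. Among mast cell lists, Ltc4s, which makes leukotriene C4, was called higher by 2.98 and Il33 and Ccl2 were called lower, by -2.75 and -3.44, and these calls were also lost with that block. The HF75 array of week 9, without WS in its title, had an Hdc level of 0.54 and mean levels of 1.76 for the adipocyte and 3.39 for the immediate-early list. The week, the WS titles and the scan day cannot be told apart otherwise, since the WS arrays shared a scan day that no week 6 or 15 array had. The loss of calls with the scan day block therefore does not settle whether they hold. The part of adipocyte RNA in the Hdc difference was not tested.

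Promoters are shown of Cpa3, Cma1 and Mcpt4, whose levels passed with each other, and of Fcer1a, which passed with Cpa3. RefSeq promoters (GRCm38.p6, 250 bases before to 50 after the start) were found for 7 of the 8 genes, all but Tpsb2. Both strands were searched for GATAA, bound by GATA factors, CACATG, the E-box usual for Mitf, CACGTG, an E-box that is its own reverse complement, and AGGAAG, an Ets core. These 4 do not contain each other. GATAA was found in 1 place each in Cpa3 at chr3:20242132-20242431 (minus strand, position -45 from the start), Cma1 at chr14:55944626-55944925 (minus strand, -194), Mcpt4 at chr14:56062261-56062560 (minus strand, -102) and Fcer1a at chr1:173227180-173227479 (minus strand, -92). Capitals mark GATAA or its reverse complement TTATC in the sequences, which read 5′ to 3′ on the strand of the gene.
Cpa3: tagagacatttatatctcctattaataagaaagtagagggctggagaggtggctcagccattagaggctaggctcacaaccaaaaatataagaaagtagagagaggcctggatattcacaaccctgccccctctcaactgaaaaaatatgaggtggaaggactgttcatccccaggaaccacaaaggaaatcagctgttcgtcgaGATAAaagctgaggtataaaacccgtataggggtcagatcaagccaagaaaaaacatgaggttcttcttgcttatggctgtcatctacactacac
Cma1: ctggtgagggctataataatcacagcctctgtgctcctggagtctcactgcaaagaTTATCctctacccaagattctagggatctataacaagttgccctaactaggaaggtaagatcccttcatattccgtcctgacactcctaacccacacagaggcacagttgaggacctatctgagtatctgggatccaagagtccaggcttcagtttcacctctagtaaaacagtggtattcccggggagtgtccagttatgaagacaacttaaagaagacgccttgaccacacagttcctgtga
Mcpt4: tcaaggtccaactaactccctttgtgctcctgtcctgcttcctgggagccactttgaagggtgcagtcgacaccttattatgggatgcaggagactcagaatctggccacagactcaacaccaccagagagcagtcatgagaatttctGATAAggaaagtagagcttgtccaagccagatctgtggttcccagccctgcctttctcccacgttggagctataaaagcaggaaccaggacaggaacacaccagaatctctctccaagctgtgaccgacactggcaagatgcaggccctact
Fcer1a: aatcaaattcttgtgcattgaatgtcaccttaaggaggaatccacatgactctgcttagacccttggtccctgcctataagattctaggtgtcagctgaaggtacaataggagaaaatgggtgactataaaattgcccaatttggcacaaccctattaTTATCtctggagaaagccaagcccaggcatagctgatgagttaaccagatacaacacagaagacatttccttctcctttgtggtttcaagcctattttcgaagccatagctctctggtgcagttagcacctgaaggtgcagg
Among all 32851 promoters 25.4% held GATAA, 14.2% CACATG, 7.2% CACGTG and 35.4% AGGAAG. Ms4a2 held 3 GATAA matches, and Kit and Hdc 0. Fcer1a held 1 CACATG, none of the 7 genes held CACGTG, and Cma1, Mcpt4, Kit and Hdc each held 1 AGGAAG in each promoter entry. A match is a description of letters in this window, and no binding was measured.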

How the data were processed

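Intensities were deposited by the authors for each array. Per the file headers they were made by Feature Extraction 10.5.1.1, with background subtracted and no normalization between arrays, while the submitters' processing notes name version 9.1. The fold change columns of the authors, 40 in number, were not used, and the annotation of that table gave the gene symbols. Control and outlier spots were left out, each array was scaled by its 75th percentile, duplicate spots were averaged as intensities, and a value too near background was raised, if below it, to a floor, the lowest level distinct from background on that array. Where a gene had several probes, the brightest on average stood for it. A bound is a difference in which the dim array stands at this floor or at its own higher reading, which was not distinct from background. Testing was limited to probes distinct from background on 50% or more of 1 side's arrays and used limma 3.58.1 in R 4.3.3 (Benjamini-Hochberg, adjusted p under 0.05), with the time label, or the diet for week 9, as a block. The test was checked on simulated data, but the outcome is not given here and no result rests on it. Tables were handled with the data.table package, version 1.17.8, and figures and promoters with Python 3.11.15 and matplotlib 3.10.9. Named genes were the 8 genes, genes of the lists, and the 10 genes most like them. The genes and lists were chosen with earlier results of these data known. Signal over background had a median of 4.86 and ranged from 1.53 to 55.4, and the number of arrays limits the precision. Alternatives were normexp with an offset of 50, quantile normalization, no floor, no filter, the mean of a gene's probes, a model over all arrays, slide and scan day blocks, and arrays left out.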

Additional observations from a re-analysis of the deposited data

Results flagged for a closer look

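The Kit level on the HF20 array of week 15 was -0.93, while the other 4 HF20 arrays lay between -0.04 and 0.24. Its gap to the nearest array was 0.764 of the range, above the 95% critical value of 0.71 for 5 arrays. Of 20 sets of a gene and a Kal-1 diet examined in this way 1 stood out, and chance gives about 1 in 20. The same array had an Hdc level of -1.04 and an adipocyte list mean of 4.87, whose part was not tested. The HF20 arrays of weeks 9 and 12 also had low Hdc levels (-1.20 and -2.03) and high adipocyte lists, with Kit levels of 0.19 and -0.04.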

How the results depend on the processing

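The differences of the 7 genes were recomputed 777 times over 49 results. Of these 727 kept their sign and their side of the threshold, 36 changed sign without being called on either side, 8 were no longer called (Hdc at week 9), 4 became called and 2 reversed. HFC, HF5 and HF20 gave 0 called probes and 0 called genes under each alternative run.

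With normexp the late against early difference of HFC from LFC called 5197 probes (17.8%) and 2 genes, Tpsb2 and Fcer1a. With normexp and without the labels day 14 and week 3, an alternative chosen after seeing the data, it called 9188 probes (31.4%) and 4 genes, with Cma1 at 2.44, Tpsb2 at 2.29 and Mcpt4 at 2.18. Fcer1a reversed from -0.08 to 2.19 and 2.41. The median of all probes was -0.54 in the main setting, 0.71 and 0.95 with normexp, so those differences are to be read against that shift. The cause was not tested.

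HF75 against HFC called 8287 probes and 1 gene without the filter on dim probes, the gene being Ms4a2, which was well above background on 0 of those arrays. It called 1 probe with no replicate block, 0 in 1 model over the 38 arrays, and 14 to 263 when a week was left out. Among comparisons run without the block no other call differed, and the time label pairs the arrays by design, as no replicate numbers were given. Late against early fell from 1 called probe to 0 with normexp, with normexp without the labels day 14 and week 3, with quantile normalization, without the filter, without day 14 and week 3, without week 9, and with slide or scan day as a random block. The fit of week 9 arrays with WS titles against weeks 6 and 15 called 498 probes and 0 genes with normexp, 1012 and 0 without the filter, 0 genes without the floor, and 0 and 0 with scan day as a random block. Leaving out each of these arrays gave 0 to 3557 probes and 0 to 0 genes. Of the 10 genes most like the mast cell genes, 5 were among the 10 over 38 arrays and 4 with levels not centred. The causes were not tested. The number of arrays and, for Ms4a2 and Fcer1a, a signal near background limit these results.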

Other observations

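The labels of 2 arrays of week 18 conflict over HF20 and HF75, and both were left out of every comparison. The first had 21710 outlier spots, so that Cpa3, Tpsb2 and Ms4a2 had no value. Its levels were -1.12 for Cma1, -1.67 for Mcpt4, -2.82 for Kit, -0.79 for Hdc and -3.79 for Fcer1a. The other had 52 outlier spots and levels of 0.42 for Cma1, -0.22 for Mcpt4, -1.96 for Cpa3, -2.43 for Tpsb2, -2.93 for Fcer1a, -0.55 for Kit and 2.54 for Hdc. Ms4a2 was not well above background on it.

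The limits of these values are that each diet and time label had 1 array, that the design text speaks of 3 biological replicates while the labels show 1, and that stromal vascular cells hold several cell types. Mast cells were not counted or sorted.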
